A study of Mus musculus with 18 samples.

Results

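The genes described here supply muscle fibres with fatty acids, store them as triglyceride and burn them in mitochondria. They are 32 genes named by symbol for these roles, mapped to Ensembl identifiers in the deposited count tables. All 32 were found among the 41388 features counted, and all 32 passed the filter on low counts in every comparison.

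Total RNA depleted of ribosomal RNA was sequenced from the soleus, a small postural muscle rich in slow fibres, and from the gastrocnemius, a larger calf muscle made mainly of fast fibres. Knockout mice carried floxed Site-1 Protease alleles (gene Mbtps1, a Golgi protease that cuts and thereby activates SREBPs and related precursors held in membranes) together with HSACre, in which the promoter of human skeletal actin restricts Cre to skeletal muscle fibres. Control mice carried the floxed alleles without Cre. All mice were 12 weeks old, ate standard chow and were fasted for 4 h before harvest. The titles give 4 knockout and 5 control libraries in the soleus and the same numbers in the gastrocnemius, which makes 18, although the design text speaks of 4 per group. Libraries are named below by the numbers in their titles. No control with Cre alone was among them, so loss of Site-1 Protease and an effect of the Cre allele cannot be told apart. No label says that the libraries came from separate mice, and the p-values measure the spread between these samples.

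Muscle fibres take up fatty acids that lipoprotein lipase frees from circulating triglyceride. Inside the cell they are bound, activated to acyl-CoA and either esterified into lipid droplets or passed through the carnitine shuttle into mitochondria. There the beta-oxidation spiral shortens them step by step and hands electrons to the respiratory chain through the electron transfer flavoprotein. Slow fibres are known for relying more on this route than fast fibres do. Pdk4, Ucp3 and Angptl4 are known to be induced by fasting.

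Library totals ran from 39.0 to 78.2 M counts. The 32 genes together took 0.835% to 1.058% of counts in soleus knockouts, 0.955% to 1.141% in soleus controls, 0.362% to 0.513% in gastrocnemius knockouts and 0.406% to 0.483% in gastrocnemius controls. Mbtps1 itself, the targeted gene, was at least as high in libraries labelled knockout as in controls on average. In the soleus its level was 36.3, 31.0, 36.3 and 34.5 counts scaled to library size (CPM) in knockouts 35, 39, 40 and 42, against 31.7, 33.2, 30.5, 31.9 and 34.4 CPM in controls 34, 36, 37, 38 and 41. In the gastrocnemius it was 35.9, 34.7, 42.8 and 37.0 CPM in knockouts 2, 6, 7 and 9, against 33.1, 34.9, 29.7, 30.1 and 29.6 CPM in controls 1, 3, 4, 5 and 8. The groups overlapped in both muscles (log2 fold change 0.10, SE 0.07, adjusted p = 0.754 in the soleus and 0.25, SE 0.08, adjusted p = 0.0945 in the gastrocnemius). Which exon the floxed allele removes could not be read from gene-level counts or the labels, so every direction below rests on the labels.

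Per exon length, transcripts of fatty acid handling covered a wide range of levels. In the soleus the highest was Fabp3, the heart and muscle fatty acid binding protein that carries fatty acids through the cytosol, at 1243 ± 159 RPKM (counts scaled to library size and exon length) in knockouts (SD, n = 4) and 1286 ± 158 RPKM in controls (SD, n = 5). Pdk4, a kinase that shuts off pyruvate dehydrogenase and so spares glucose, came next at 453 ± 150 RPKM in knockouts and 432 ± 115 RPKM in controls. Lpl, the lipoprotein lipase gene, followed at 244 ± 41.5 RPKM in knockouts and 293 ± 18.4 RPKM in controls, ahead of Acadl, the long-chain acyl-CoA dehydrogenase gene, at 173 ± 16.4 and 184 ± 9.10 RPKM in the same groups. In the gastrocnemius Pdk4 stood first at 364 ± 166 RPKM in knockouts and 359 ± 40.9 RPKM in controls, a lead over Fabp3 (328 ± 55.9 RPKM in knockouts and 324 ± 46.9 RPKM in controls) that was smaller than the spread. Ucp3, an uncoupling protein of the inner mitochondrial membrane, ranked 6 of 32 in both gastrocnemius groups but 20 in soleus knockouts and 19 in soleus controls. At the low end of all 4 groups stood Angptl4, Cpt1b, Lipe and Plin2, the last of these at 8.87 ± 1.71 RPKM in soleus knockouts and 7.67 ± 0.832 RPKM in soleus controls.

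**Figure D1:**
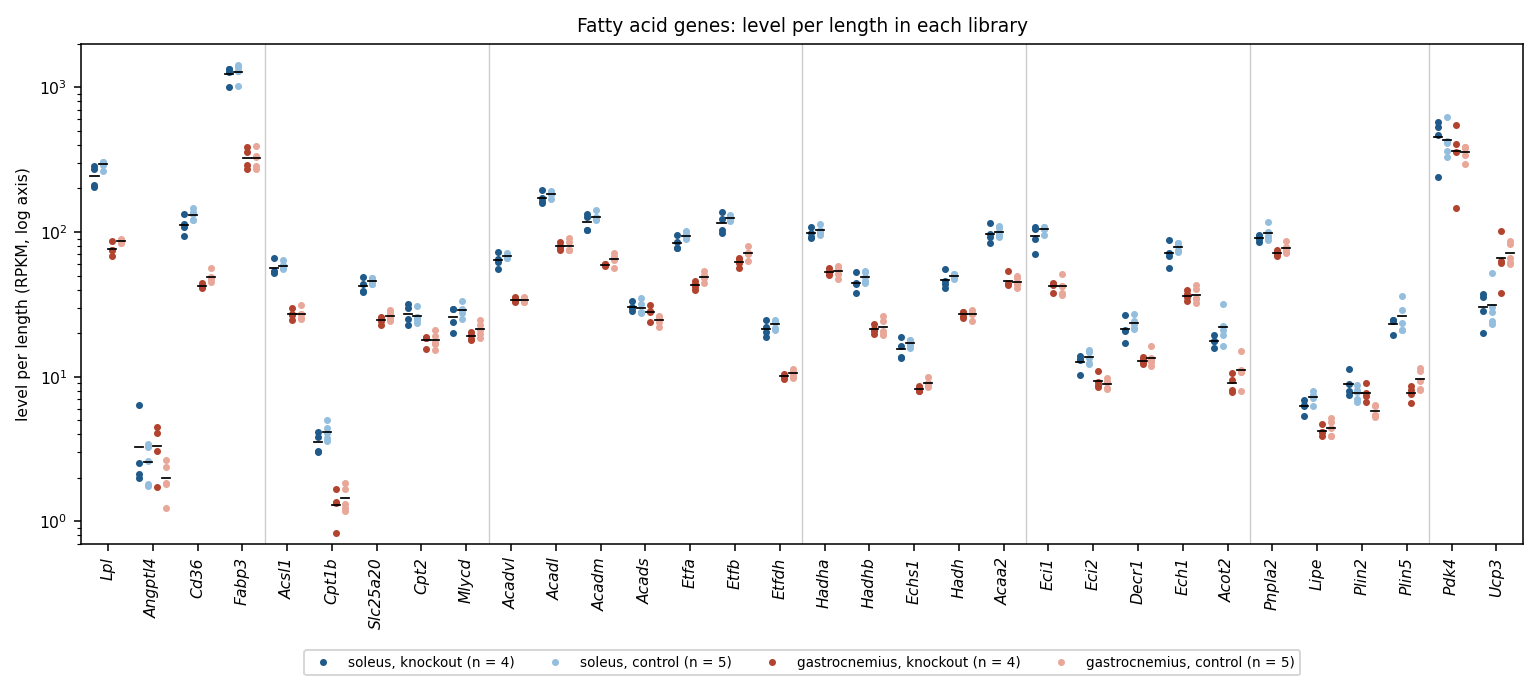
Level per exon length (RPKM, log axis) of each of the 32 genes in each of the 18 libraries, in the order of their roles, with the group mean as a black bar. In each gene the soleus groups stand left of the gastrocnemius groups and knockouts left of controls. Fabp3 in the soleus, at 1243 and 1286 RPKM, stands at the top, and within each genotype the soleus points of Ucp3 lie below its gastrocnemius points.

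The muscles differed in most of these genes. In control mice, 29 of 32 were higher in the soleus and 1 was lower, whereas 27.4% of the 18494 genes tested were higher and 21.9% were lower. In knockout mice, 27 of 32 were higher and 1 was lower, against 19.2% and 18.5% of all genes tested. The median log2 fold change of the 32 genes (soleus minus gastrocnemius) was 0.92 in knockout mice and 0.94 in control mice, and that of all genes tested was 0.03 in knockout mice and 0.08 in control mice. Soleus and gastrocnemius libraries did not overlap in 30 of 32 genes in control mice (36.7% of all genes) and in 26 of 32 in knockout mice (32.4% of all genes), 25 of those 26 being above. The counts of members called higher and lower were the same in every alternative fit and without each library in turn, except that a fit blocking on title numbers also called Pdk4 in knockout mice. Both comparisons come from the same model of all 18 libraries.

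**Figure D2:**
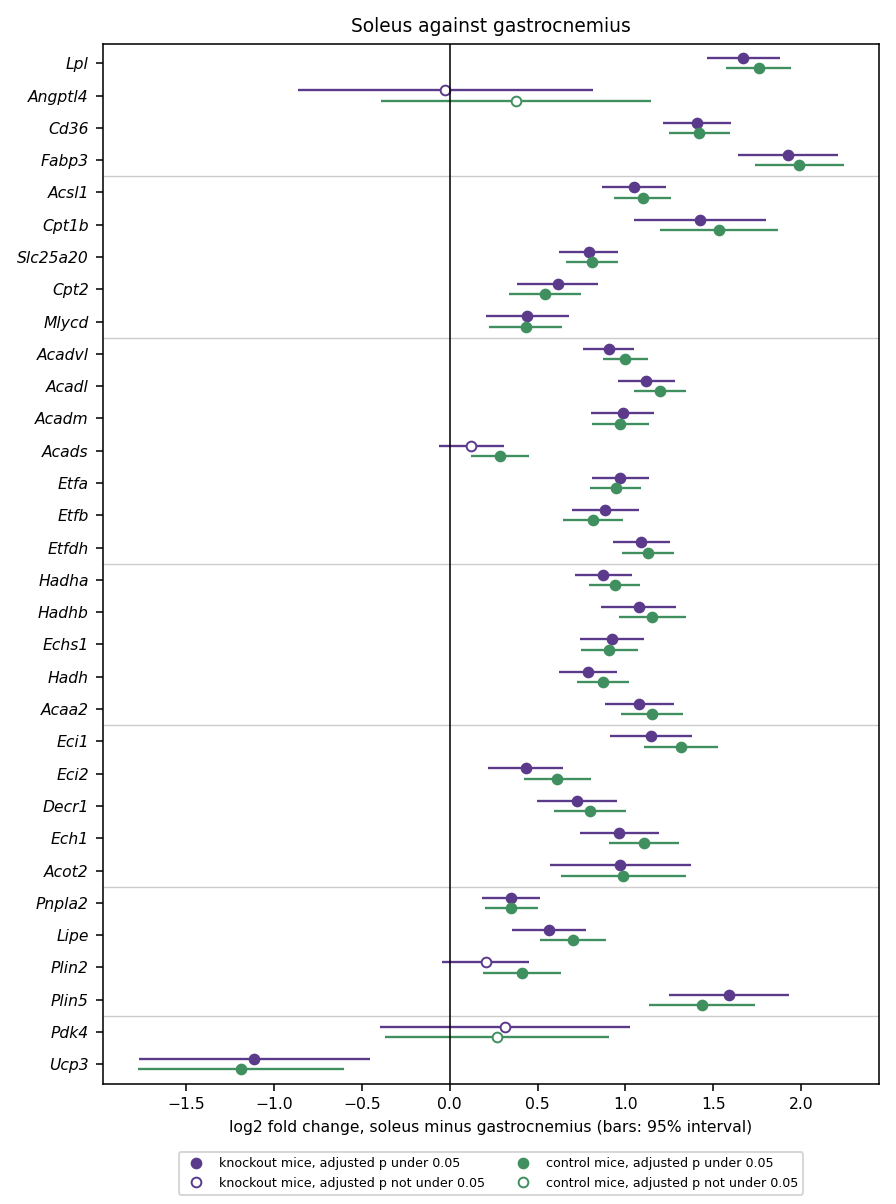
Log2 fold change of each of the 32 genes, soleus minus gastrocnemius, in knockout mice (purple, upper point) and control mice (green, lower point), with bars for the 95% interval and filled points for adjusted p under 0.05. Fabp3, Lpl, Plin5, Cpt1b and Cd36 lie furthest to the right, and Ucp3 alone lies to the left with both intervals below 0.

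Among uptake genes, Fabp3 and Lpl had the largest log2 fold changes between muscles of the 32 genes, in both genotypes. Fabp3 (ENSMUSG00000028773, chr4:130308595-130315463, GRCm38) had 1105, 1106, 1051 and 830 CPM in soleus knockouts 35, 39, 40 and 42, against 295, 223, 321 and 239 CPM in gastrocnemius knockouts 2, 6, 7 and 9. In controls it had 841, 1066, 1144, 1069 and 1171 CPM in the soleus, against 226, 235, 273, 275 and 323 CPM in the gastrocnemius. The lowest soleus library thus lay above the highest gastrocnemius library in both genotypes, with log2 fold changes of 1.93 in knockout mice (SE 0.14, adjusted p = 5.8e-10) and 1.99 in control mice (SE 0.12, adjusted p = 3.16e-11). Lpl (ENSMUSG00000015568, chr8:68880491-68907448) averaged 1658 ± 283 CPM in soleus knockouts and 520 ± 52.8 CPM in gastrocnemius knockouts, and 1998 ± 125 CPM in soleus controls and 591 ± 17.4 CPM in gastrocnemius controls. Its log2 fold change was 1.67 in knockout mice (SE 0.10) and 1.76 in control mice (SE 0.09, adjusted p = 6.05e-13, the smallest among the 32). Cd36, a membrane receptor that speeds fatty acid entry, was higher by 1.41 in knockout mice and 1.42 in control mice on the log2 scale. Angptl4, a secreted inhibitor of lipoprotein lipase, did not pass the test in knockout mice (-0.03, 95% interval -0.87 to 0.81) or control mice (0.38, -0.39 to 1.14), and its groups overlapped.

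A pseudogene of Fabp3, Fabp3-ps1, held 477 to 4576 counts per library, against 8790 to 98187 for Fabp3, and no source used here says how reads shared by both were counted.

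All 5 genes of activation and the carnitine shuttle were higher in the soleus in both genotypes. Acsl1, the main long-chain acyl-CoA synthetase of muscle, differed by 1.05 in knockout mice and 1.10 in control mice (log2), and Slc25a20, the carnitine-acylcarnitine carrier, by 0.79 and 0.81 in the same order. Cpt2, the carnitine palmitoyltransferase of the inner membrane, differed by 0.61 in knockout mice and 0.54 in control mice. Mlycd, which degrades malonyl-CoA and so relieves the block on carnitine palmitoyltransferase 1, differed by 0.44 in knockout mice, where the groups overlapped, and 0.43 in control mice. Cpt1b, the muscle form of carnitine palmitoyltransferase 1 (ENSMUSG00000078937, chr15:89416405-89425863, minus strand), gave 1.43 in knockout mice and 1.53 in control mice, but its level is uncertain. In the deposited annotation 2744 of its 3372 exon bases (81.4%) are shared on the same strand with Chkb, the choline kinase beta gene, which was itself 1.02 higher in the soleus of knockout mice and 1.18 higher in control mice.

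The acyl-CoA dehydrogenases, which take the first step of the spiral on chains of different lengths, were higher in the soleus by similar amounts except for the short-chain enzyme. Acadvl, for very long chains, averaged 172 ± 18.6 CPM in soleus knockouts and 91.7 ± 3.75 CPM in gastrocnemius knockouts (0.90), and 183 ± 5.81 CPM in soleus controls and 91.7 ± 3.56 CPM in gastrocnemius controls (1.00). Of its 2686 exon bases 1151 are shared with Dvl2 on the opposite strand, and no source used here says how strand was handled. Dvl2 held a mean of 423.83 counts per library, against 7551.11 for Acadvl. Acadl gave 1.12 in knockout mice and 1.196 in control mice, and Acadm, for medium chains, 0.98 and 0.97. Acads, for short chains, gave 0.12 in knockout mice, where it did not pass the test (95% interval -0.06 to 0.31), and 0.29 in control mice (adjusted p = 0.0051). Etfa and Etfb, the subunits of the electron transfer flavoprotein, and Etfdh, its dehydrogenase, which passes the electrons on to ubiquinone, were all higher, by 0.89 to 1.09 in knockout mice and by 0.82 to 1.13 in control mice.

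All 5 genes of the later steps of the spiral were higher in the soleus in both genotypes. Echs1 (short-chain enoyl-CoA hydratase), Hadh (short-chain hydroxyacyl-CoA dehydrogenase), Acaa2 (the thiolase of the mitochondrial matrix), and Hadha and Hadhb (alpha and beta subunits of the trifunctional protein) were higher in the soleus by 0.79 to 1.08 in knockout mice and by 0.87 to 1.154 in control mice. Hadha and Hadhb encode subunits of 1 complex and lie head to head, 85 bases apart. Their CPM ratio, Hadha over Hadhb, was 1.78 ± 0.134 in soleus knockouts (range 1.655 to 1.943), 1.70 ± 0.087 in soleus controls (1.593 to 1.809), 2.04 ± 0.068 in gastrocnemius knockouts (1.981 to 2.127) and 1.98 ± 0.167 in gastrocnemius controls (1.771 to 2.236). All soleus knockouts lay below all gastrocnemius knockouts, whereas the muscles overlapped in controls, and the ratio was not tested between muscles. The whole interval between their annotated starts, chr5:30155163-30155247 on the plus strand (the direction of Hadhb), is shown because both genes have to be transcribed away from it; capitals mark the GC box GGGCGG.

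Hadha-Hadhb: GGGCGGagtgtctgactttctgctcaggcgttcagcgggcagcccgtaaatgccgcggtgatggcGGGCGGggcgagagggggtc

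Auxiliary enzymes, which handle unsaturated chains or release free fatty acids from acyl-CoA, were higher in the soleus as well. Eci1 and Eci2 are enoyl-CoA isomerases, and they differed by 1.14 and 0.43 in knockout mice and by 1.31 and 0.61 in control mice. Decr1, the dienoyl-CoA reductase of mitochondria, gave 0.73 in knockout mice and 0.80 in control mice, and Ech1, a dienoyl-CoA isomerase, 0.97 and 1.10. Acot2, a mitochondrial acyl-CoA thioesterase, gave 0.97 in knockout mice and 0.99 in control mice. Acot2 has close relatives in the genome, of which Acot1 held 36 to 475 counts per library against 695 to 3972 for Acot2, so its level depends on how shared reads were assigned.

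Among storage genes the contrast was widest for Plin5, which coats lipid droplets that lie against mitochondria. Plin5 held 51.4, 50.2, 51.8 and 40.4 CPM in soleus knockouts, against 18.1, 15.7, 16.8 and 13.7 CPM in gastrocnemius knockouts. In controls it held 43.9, 60.5, 44.1, 48.9 and 74.9 CPM in the soleus, against 17.2, 24.1, 17.0, 19.6 and 22.8 CPM in the gastrocnemius. No gastrocnemius library reached the lowest soleus library, and the log2 fold change was 1.59 in knockout mice (SE 0.16) and 1.44 in control mice (SE 0.14). Lipe, the hormone-sensitive lipase, differed by 0.57 in knockout mice and 0.70 in control mice, and Pnpla2, the adipose triglyceride lipase that starts lipolysis, by 0.35 in each. Plin2, the general lipid droplet coat, was higher by 0.41 in the soleus of control mice (adjusted p = 0.00295) and did not pass the test in knockout mice (0.21, 95% interval -0.04 to 0.45, adjusted p = 0.183).

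Ucp3 (ENSMUSG00000032942, chr7:100472990-100486432) was the member that ran the other way. It held 118, 89.8, 112 and 63.1 CPM in soleus knockouts 35, 39, 40 and 42, against 319, 190, 198 and 119 CPM in gastrocnemius knockouts 2, 6, 7 and 9. It held 87.1, 94.8, 75.5, 72.2 and 163 CPM in soleus controls 34, 36, 37, 38 and 41, against 188, 271, 209, 194 and 259 CPM in gastrocnemius controls 1, 3, 4, 5 and 8. All soleus libraries lay below all gastrocnemius libraries of the same genotype, although the highest soleus and the lowest gastrocnemius knockout nearly met. The log2 fold change was -1.11 in knockout mice (SE 0.31, 95% interval -1.77 to -0.46, adjusted p = 0.0101) and -1.19 in control mice (SE 0.28, -1.77 to -0.60, adjusted p = 0.00227). Pdk4 did not pass the test between muscles, except in knockout mice with the block on title numbers (0.39, adjusted p = 0.0332). Without the block its log2 fold change had a wide interval (0.32 in knockout mice, 95% interval -0.40 to 1.03, and 0.27 in control mice, -0.37 to 0.91).

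Promoters of members that differed in direction are shown beside each other. AGGTCA is the core motif bound by nuclear receptors such as the PPARs, which are known regulators of fatty acid genes. The windows were those of RefSeq (GRCm38.p6), from 250 bases before to 50 after each transcript start, and 27 of the 32 genes had one, while Angptl4, Lpl, Acaa2, Cpt1b and Decr1 had none in the table. On either strand AGGTCA occurred in 7 of the 27 genes (25.9%), namely Cd36, Acadm, Acadvl, Echs1, Plin2, Plin5 and Ucp3, and in 18.13% of all 27025 genes with a window (16.255% of all 32851 windows). The direct repeat AGGTCANAGGTCA, which is made of 2 copies of that motif, occurred in 0 of the 27 and in 0.05% of all genes with a window. Only exact copies were searched for, and at so low a share 0 of 27 cannot tell these genes from others. The GC box GGGCGG occurred in 19 of the 27 (70.4%) and in 38.2% of all genes with a window. These matches describe the letters only. Plin5, higher in the soleus and not shown, had AGGTCA at bases -170 and 14, counted from annotated transcript starts. The first sequence below belongs to Ucp3 (chr7:100472791-100472989, plus strand), lower in the soleus, with 2 copies of the motif. The second belongs to Acadm (chr3:153944644-153944893, minus strand), higher in the soleus, and the last to Plin2 (chr4:86670061-86670309, minus strand), the single member called between genotypes. Capitals mark AGGTCA or, on the other strand, TGACCT, and each sequence reads 5′ to 3′ towards its gene.

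Ucp3: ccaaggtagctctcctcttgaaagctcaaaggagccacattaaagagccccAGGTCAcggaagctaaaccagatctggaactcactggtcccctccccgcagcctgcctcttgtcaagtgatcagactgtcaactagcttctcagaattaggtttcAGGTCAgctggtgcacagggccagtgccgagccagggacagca
Acadm: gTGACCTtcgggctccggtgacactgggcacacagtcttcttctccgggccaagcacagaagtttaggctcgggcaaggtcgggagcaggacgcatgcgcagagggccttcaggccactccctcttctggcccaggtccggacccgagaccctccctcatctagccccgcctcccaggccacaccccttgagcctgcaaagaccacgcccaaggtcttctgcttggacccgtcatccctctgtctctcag
Plin2: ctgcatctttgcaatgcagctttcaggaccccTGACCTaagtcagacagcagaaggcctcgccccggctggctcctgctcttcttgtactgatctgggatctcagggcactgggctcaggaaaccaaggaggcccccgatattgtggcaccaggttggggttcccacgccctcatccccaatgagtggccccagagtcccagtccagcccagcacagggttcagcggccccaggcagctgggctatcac

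Markers of fibre types and other cells differed between the muscles as well. All 10 slow-fibre markers were higher in the soleus, with summed levels of 14000 to 20410 CPM in soleus knockouts against 555.4 to 1078 CPM in gastrocnemius knockouts, and 21160 to 25970 CPM in soleus controls against 1045 to 1611 CPM in gastrocnemius controls. Of 10 endothelial markers, 6 were higher and 2 lower in the soleus of knockout mice and 8 were higher in control mice, with sums of 433.5 to 492.7 CPM in soleus knockouts against 378.2 to 419.8 CPM in gastrocnemius knockouts, and 471.6 to 494.9 CPM in soleus controls against 365.6 to 393.2 CPM in gastrocnemius controls. Adipocyte markers summed to 534.9 to 906.2 CPM in soleus knockouts against 436.3 to 723.2 CPM in gastrocnemius knockouts, and to 752.3 to 907 CPM in soleus controls against 568.8 to 776 CPM in gastrocnemius controls. Of these 10 markers only 1 was called higher and 0 lower in each genotype, and 6 positive log2 fold changes stood against 4 negative ones. Their median was 0.198 in knockout mice and 0.055 in control mice. Lpl, Cd36, Plin2 and Lipe are known to be expressed in adipocytes or endothelium too. Other lists ran the opposite way: 9 of 10 fast-fibre markers and 4 of 6 fibroblast markers were lower in the soleus in each genotype, and macrophage markers were lower in 5 of 8 in knockout mice and 3 of 8 in control mice. The part of these cells in the results was not tested, and in bulk RNA a different number of cells of a type and a different amount of RNA per cell cannot be told apart.

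The knockout comparison asks whether loss of Site-1 Protease in muscle alters these genes. In the gastrocnemius 1 of the 32 genes rose in knockouts, Plin2, and 0 fell, where 1.77% of the 16393 genes tested rose and 2.01% fell. The log2 fold change was above 0 in 9 of 32 genes and in 53.5% of all genes, with a median of -0.06 against 0.02 over all genes tested, and without control 8 the median of the 32 genes was 0.01. An unadjusted p under 0.05 was found in 9 of the 32 genes and in 18.6% of all genes. Groups did not overlap for 2 of the 32, Plin2 and Cd36, and for 8.41% of all genes. The 95% interval lay within 0.5 log2 units of 0 for 25 genes and within 1 for 31.

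**Figure D3:**
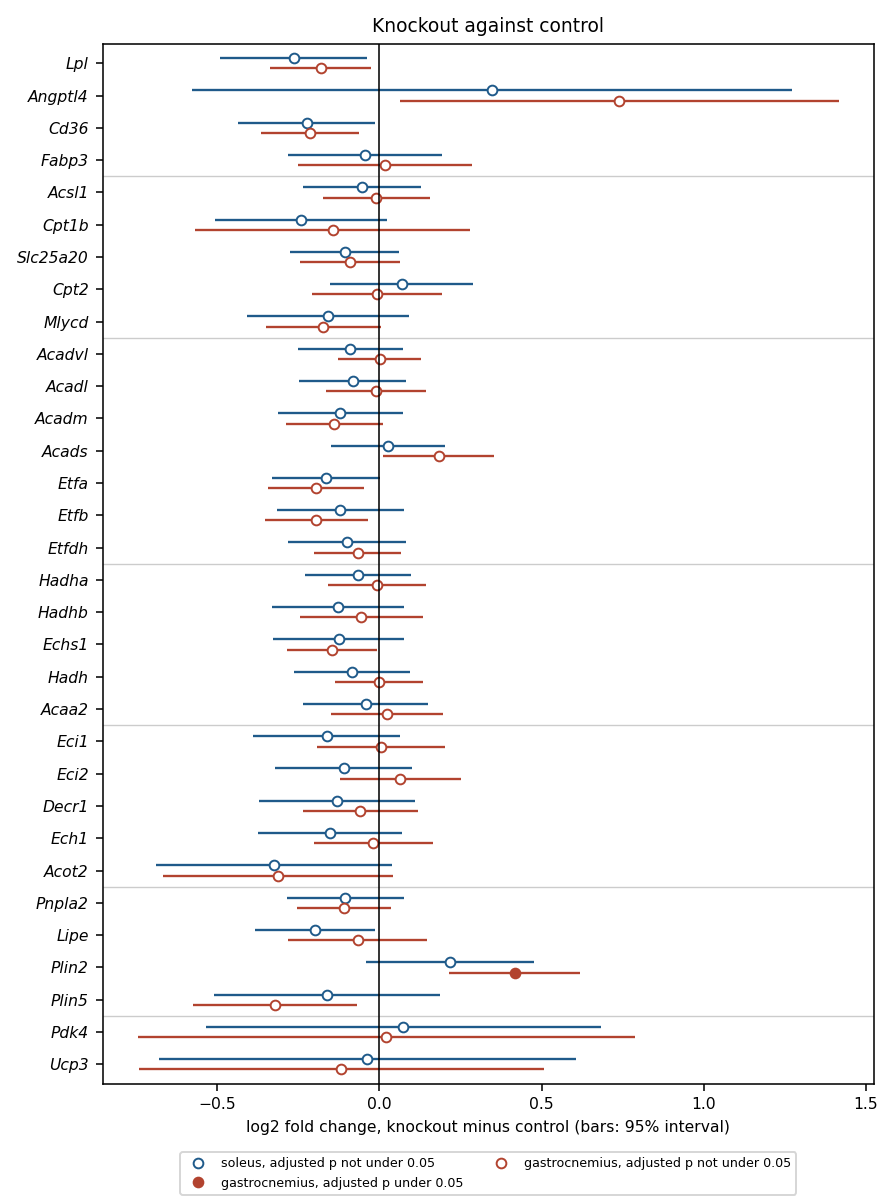
Log2 fold change of each of the 32 genes, knockout minus control, in the soleus (blue, upper point) and gastrocnemius (red, lower point), with bars for the 95% interval and filled points for adjusted p under 0.05. Plin2 in the gastrocnemius, at 0.42, is the 1 filled point, and Angptl4, Pdk4 and Ucp3 have the widest intervals.

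Plin2 (ENSMUSG00000028494, chr4:86648386-86670060, minus strand) is a coat protein whose abundance is known to follow the amount of stored lipid. In the gastrocnemius it held 23.7, 27.0, 31.7 and 25.8 CPM in knockouts 2, 6, 7 and 9, against 18.4, 19.1, 22.1, 19.0 and 22.5 CPM in controls 1, 3, 4, 5 and 8. All 4 knockout libraries lay above all 5 controls, as did the libraries of 3.79% of all genes, with knockout 7 the highest. The log2 fold change was 0.42 (SE 0.09, 95% interval 0.22 to 0.62, adjusted p = 0.0272). The call held under the 9 other fits (adjusted p 0.00437 to 0.042) but was lost without control 1 (0.38, adjusted p = 0.0776), control 5 (0.39, 0.0865), knockout 6 (0.42, 0.0808) or knockout 7 (0.33, 0.0751). Macrophage markers moved in the same direction: 7 of 8 had an unadjusted p under 0.05, 0 of 8 were called, and their sum was 137.1, 140.1, 260.6 and 141.3 CPM in the same 4 knockouts against 101 to 145.4 CPM in controls. Fibroblast markers had positive log2 fold changes in 6 of 6, with 3 at an unadjusted p under 0.05 and 0 called, and their sum was 2481, 2655, 4100 and 2719 CPM in those knockouts against 1850 to 3075 CPM in controls. Knockout 7 was highest in Plin2 and in both sums, and the other 3 knockouts overlapped the controls in both sums but not in Plin2. In the macrophage sum that overlap came from control 8 alone (145.4 CPM), the control with the highest Plin2. The other controls had macrophage sums of 101 to 124.2 CPM, below every knockout. In the fibroblast sum it came from controls 1 and 3 (3075 and 2790 CPM). Adipocyte markers summed to 436.3 to 723.2 CPM in knockouts and 568.8 to 776 CPM in controls, with 0 of 10 called. Their log2 fold changes were negative in 9 of 10 and positive in 1 (median -0.29), with 2 at an unadjusted p under 0.05. The part of these cell types in the Plin2 result was not tested.

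Uptake genes did not pass the test in the gastrocnemius. Cd36 (ENSMUSG00000002944, chr5:17781690-17888959, minus strand) held 175, 164, 161 and 166 CPM in knockouts, against 186, 189, 178, 191 and 221 CPM in controls. Its groups did not overlap, every knockout lying below every control as for 4.61% of all genes, but the adjusted p was 0.107 (log2 fold change -0.21, SE 0.07, 95% interval -0.36 to -0.06). Lpl averaged 520 ± 52.8 CPM in knockouts and 591 ± 17.4 CPM in controls (-0.18, SE 0.07, adjusted p = 0.19), and it passed without knockout 2 (-0.25, adjusted p = 0.0426). Angptl4 held 13.3, 10, 14.8 and 5.64 CPM in knockouts, against 7.83, 8.75, 5.93, 4.09 and 6.01 CPM in controls. Knockouts 2, 6 and 7 lay above every control while knockout 9 lay below 4 of 5 of them (0.74, SE 0.30, adjusted p = 0.222), and the difference passed without knockout 9 (0.96, adjusted p = 0.0446). Fabp3 gave 0.02 (95% interval -0.25 to 0.29). Adipocyte markers had negative log2 fold changes there in 9 of 10 (median -0.29) and endothelial markers positive ones in 6 of 10, with 0 called in either list. The part of these cells in the Cd36 and Lpl values was not tested.

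Genes of the carnitine shuttle and the spiral gave small differences between genotypes in the gastrocnemius. The 5 genes of activation and carnitine transfer ran from -0.17 for Mlycd to -0.01 for Cpt2 and Acsl1. Etfa and Etfb both gave -0.19 (SE 0.07, adjusted p = 0.138 and 0.167), with Etfa at 77.1, 72.7, 80.8 and 84.0 CPM in knockouts and 87.6, 81.5, 90.5, 98.4 and 92.3 CPM in controls. Here knockout 9 lay above the lowest control and the other knockouts below all controls. Acads pointed the other way at 0.18 (SE 0.08, adjusted p = 0.229), and Acadvl, Hadh and Hadha lay within 0.01 of 0 with 95% intervals no wider than -0.16 to 0.14. The single-library shift of Cpt1b (knockout 7 at 2.79 CPM, the other knockouts at 4.52 to 5.68 CPM, controls at 3.96 to 6.17 CPM) is subject to the shared exons named above.

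The other storage genes and the thioesterase gave negative differences that did not pass. Plin5 averaged 16.1 ± 1.85 CPM in gastrocnemius knockouts and 20.1 ± 3.20 CPM in controls (-0.32, SE 0.12, adjusted p = 0.149), so that the log2 fold changes of the coat genes Plin2 and Plin5 had opposite signs there. Acot2 averaged 19.7 ± 2.89 CPM in knockouts and 24.5 ± 5.58 CPM in controls (-0.31, SE 0.16, adjusted p = 0.334). Pnpla2 gave -0.11 and Lipe -0.07, each with an interval that includes 0.

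In the soleus 0 of the 32 genes were called in knockouts, where 0.0553% of the 18087 genes tested were called by edgeR. DESeq2 and limma voom also called 0 of the 32, and 3 (Lpl, Cd36 and Lipe) had an unadjusted p under 0.05, as did 8.19% of all genes. Knockout and control libraries overlapped for all 32, while 2.55% of all genes had groups apart. The log2 fold change was above 0 in 5 of 32, against 49.9% of all genes, with a median of -0.11 against 0.00 over all genes. Knockout 42 was the lowest of its group in 28 of the 32 genes, with a median ratio of 0.81 to the control mean, and knockout 39 was the highest in 24. Without knockout 42 the median was -0.05, and without knockout 39 it was -0.18. Lpl held 1956, 1843, 1432 and 1401 CPM in soleus knockouts 35, 39, 40 and 42, against 1983, 2072, 2088, 2060 and 1786 CPM in controls (-0.26, SE 0.11, adjusted p = 0.531). Knockouts 40 and 42 lay below every control, and knockouts 35 and 39 overlapped them. Cd36 averaged 441 ± 64.6 CPM in soleus knockouts and 517 ± 41.9 CPM in controls (-0.22, SE 0.10, adjusted p = 0.589), and Lipe 28.3 ± 2.95 and 32.6 ± 2.93 CPM (-0.20, SE 0.09, adjusted p = 0.585). Adipocyte markers had negative log2 fold changes in 10 of 10 (median -0.29), with 1 at an unadjusted p under 0.05 and 0 called. Their sum was 906.2, 626.5, 612.2 and 534.9 CPM in knockouts 35, 39, 40 and 42, against 752.3 to 907 CPM in controls. Endothelial markers were negative in 7 of 10, with 0 called. The part of these cells in the Lpl, Cd36 and Lipe values was not tested. Plin2 held 26.1, 31.0, 39.6 and 27.9 CPM in soleus knockouts, against 27.5, 28.4, 24.7, 23.4 and 30.7 CPM in controls (0.22, SE 0.12, 95% interval -0.04 to 0.48). The groups overlapped, and knockout 40 was the highest both for Plin2 and for the macrophage marker sum (143.2 CPM, the other soleus knockouts 81.98 to 98.67 CPM, soleus controls 64.45 to 105.4 CPM).

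The knockout effect did not pass a test of difference between the muscles for any member. The interaction term (soleus effect minus gastrocnemius effect) was called in 0 of 32 genes, where 0.0703% of all 18494 genes were called, and 0 of 32 had an unadjusted p under 0.05 in edgeR, against 5.4% of all genes. DESeq2 and limma voom also called 0 of the 32. For Plin2 it was -0.21 (SE 0.16, 95% interval -0.54 to 0.12), so the call in the gastrocnemius is not shown to be particular to that muscle. The interval lay within 0.5 log2 units of 0 for 25 of the 32 genes.

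**Figure D4:**
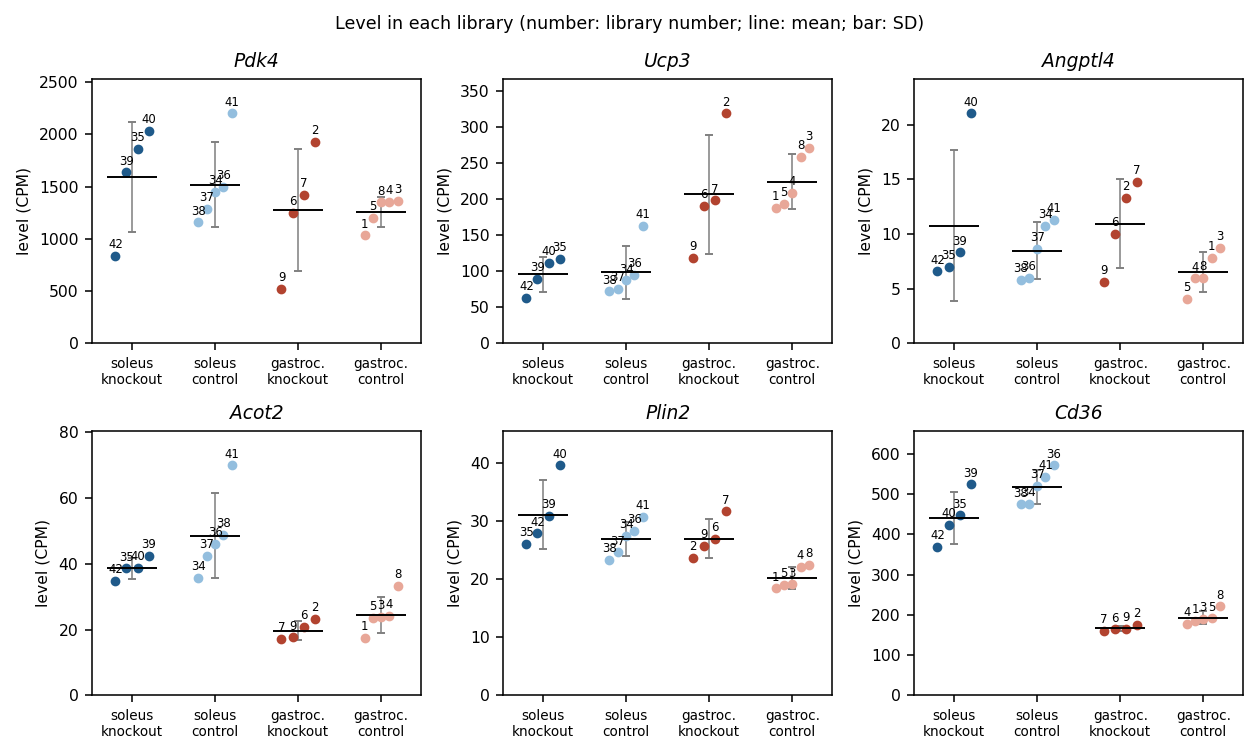
Level (CPM) of Pdk4, Ucp3, Angptl4, Acot2, Plin2 and Cd36 in each library, with the library number beside each point, the group mean as a line and the SD as a bar. Knockout 9 in the gastrocnemius and knockout 42 in the soleus are the lowest of their groups for Pdk4 (517 and 837 CPM) and Ucp3 (119 and 63.1 CPM), and in Plin2 the 4 gastrocnemius knockouts stand above the 5 controls.

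Angptl4, Ucp3 and Pdk4, known to follow feeding and fasting, had the highest coefficients of variation of the 32 genes as a mean over the 4 groups, but not in each group. Over the 4 groups the mean coefficient was 40.0% for Angptl4, 30.2% for Ucp3 and 29.2% for Pdk4, whereas the median over the 32 genes was 13.6% in soleus knockouts, 8.2% in soleus controls, 7.2% in gastrocnemius knockouts and 8.9% in gastrocnemius controls. For Pdk4 it was 45.6% in gastrocnemius knockouts and 11.4% in gastrocnemius controls, where Acot2 (22.8%) and Cpt1b (19.8%) lay above both Pdk4 and Ucp3 (17.1%). Pdk4 (ENSMUSG00000019577, chr6:5483351-5496309, minus strand) held 1861, 1635, 2029 and 837 CPM in soleus knockouts 35, 39, 40 and 42, against 1447, 1497, 1285, 1156 and 2200 CPM in soleus controls 34, 36, 37, 38 and 41. In the gastrocnemius it held 1924, 1249, 1419 and 517 CPM in knockouts 2, 6, 7 and 9, against 1032, 1363, 1351, 1198 and 1348 CPM in controls 1, 3, 4, 5 and 8. A single knockout library in each muscle, 42 and 9, lay below every control, while the remaining knockouts spread across or above them. No label says whether libraries 42 and 9, or libraries 40 and 7, came from the same mouse, so the muscles may not be separate observations of such a pattern. The genotype difference was accordingly imprecise, at 0.07 in the soleus (95% interval -0.53 to 0.68) and 0.02 in the gastrocnemius (-0.75 to 0.79). Ucp3 gave -0.04 in the soleus (-0.68 to 0.61) and -0.12 in the gastrocnemius (-0.74 to 0.51), and these intervals take in changes of 0.5 log2 units in either direction.

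**Figure D5:**
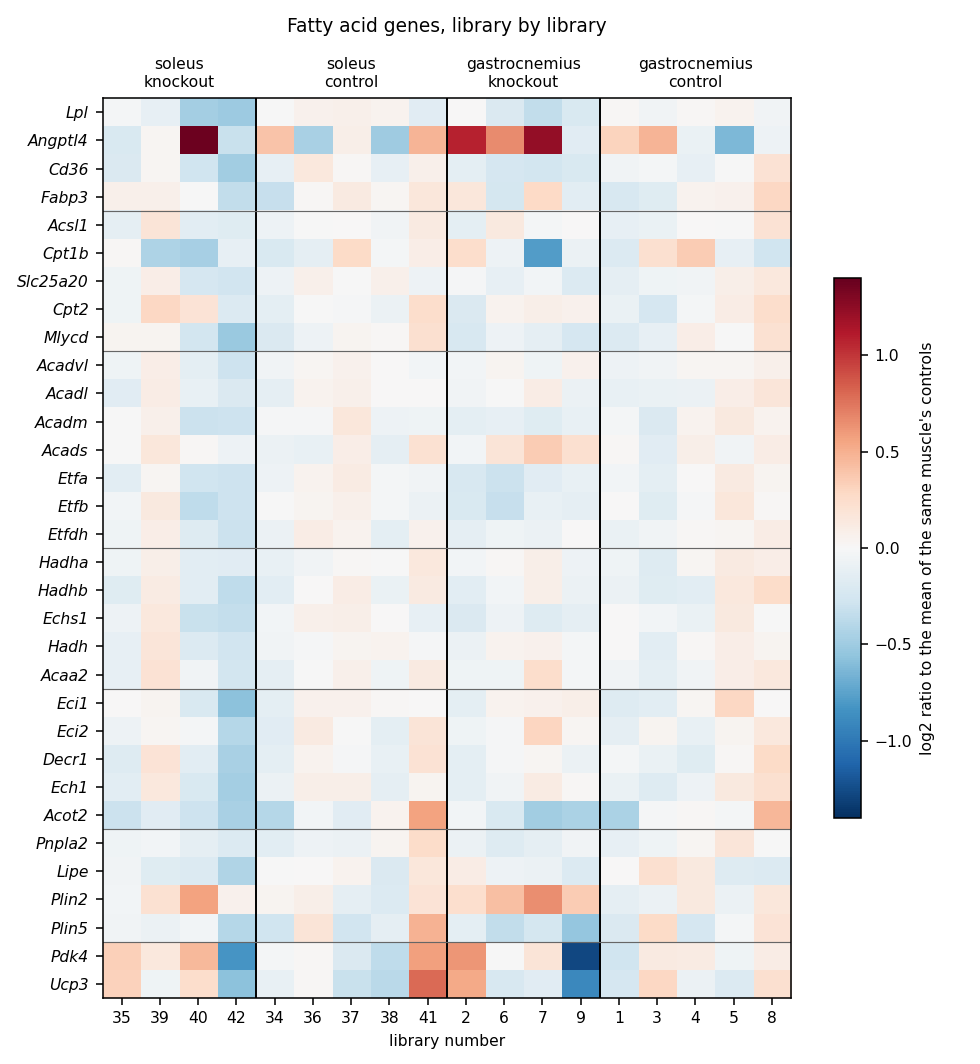
Log2 ratio of each of the 32 genes in each library to the mean of the same muscle's controls, red for above and blue for below, with genes in the order of their roles. The column of soleus knockout 42 is blue in nearly every gene (lowest of its group in 28 of 32), Plin2 is red in all 4 gastrocnemius knockouts, and Pdk4 and Ucp3 are red in knockout 2 and blue in knockout 9.

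Fibre-type markers also moved with genotype and are given beside these results. In the soleus slow-fibre markers summed to 14000 to 20410 CPM in knockouts against 21160 to 25970 CPM in controls, with 9 of 10 at an unadjusted p under 0.05 and 0 called. Fast-fibre markers there summed to 29940, 29530, 32980 and 16510 CPM in knockouts 35, 39, 40 and 42, against 21910 to 27480 CPM in controls. Knockouts 35, 39 and 40 thus lay above every control and knockout 42 below every control. Log2 fold changes of these markers were positive in 7 of 10 and negative in 3 (median 0.34), with 3 at an unadjusted p under 0.05 and 0 called. In the gastrocnemius slow-fibre markers summed to 555.4 to 1078 CPM in knockouts against 1045 to 1611 CPM in controls, and Myl2, a slow myosin light chain, fell by 0.95 on the log2 scale (adjusted p = 0.0113, lost without knockout 7, 0.0588). Myl2 was the 1 of 10 slow-fibre markers called there, 9 having negative log2 fold changes and 1 a positive one of 0.86. Fast-fibre markers were negative there in 8 of 10, with 5 at an unadjusted p under 0.05 and 0 called. They summed to 138500 to 152700 CPM in knockouts against 144700 to 170000 CPM in controls. Knockout 9, the lowest for Pdk4 and Ucp3, also had the lowest slow-fibre sum in the gastrocnemius, whereas knockout 42 had the highest among soleus knockouts. The part of fibre makeup in the knockout results was not tested.

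Other genes of the same pathways, listed with earlier results of these data known, were read in the same gastrocnemius fit, in which 3.78% of all genes were called. Of 12 further uptake and activation genes 0 rose and 2 fell in knockouts, the acyl-CoA synthetases Acsl3 (-0.58, adjusted p = 0.0315) and Acsl6 (-0.30, 0.0476). Acsl3 averaged 12.1 ± 2.35 CPM in knockouts and 18.1 ± 2.6 CPM in controls. Of 15 further genes of acyl-CoA metabolism 2 fell, the thioesterase Acot7 (-0.36, 0.0358) and the propionyl-CoA carboxylase subunit Pcca (-0.26, 0.0435). Of 16 further droplet and triglyceride genes 1 rose, the droplet coat Plin3 (0.47, adjusted p = 0.0246, 58.4 ± 6.39 CPM in knockouts and 42.2 ± 5.79 CPM in controls), and 2 fell, the triglyceride synthesis enzymes Dgat2 (-0.31, 0.0415) and Agpat1 (-0.28, 0.0439). Of 18 regulators 2 fell, the retinoid X receptors Rxrg (-0.58, adjusted p = 0.00423) and Rxra (-0.31, 0.0415), which pair with PPARs on DNA. Rxrg averaged 33.9 ± 4.25 CPM in knockouts and 50.6 ± 4.40 CPM in controls. None of 18 peroxisomal, 7 carnitine and 9 pyruvate and ketone genes was called, and the 0.35 of Cpt1a, the liver-type carnitine palmitoyltransferase 1, had an adjusted p of 0.0598. The median log2 fold change over these lists ran from -0.20 for regulators to 0.03 for carnitine genes, against 0.02 over all genes.

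Most of these calls were lost without certain single libraries. Rxrg was called without each of the 9 libraries in turn (adjusted p 0.000603 to 0.0236). Plin3 lost its call without control 4, control 5 or knockout 7 (highest adjusted p 0.0625), and Acsl3 without control 1, control 4, control 8 or knockout 6 (0.109). Acsl6 was no longer called without controls 1, 3, 4, 8 or knockouts 6, 7 (0.145), nor Acot7 without controls 1, 4, 5 or knockouts 2, 6, 9 (0.115). For Dgat2 these were controls 1, 4, 5, 8 and knockouts 6, 7 (0.116). Agpat1 and Rxra each kept the call in 2 of 9 such fits and Pcca in 0 of 9. Agpat1 kept it without control 3 or knockout 2 and Rxra without control 3 or knockout 9. Under upper-quartile scaling Acsl6, Pcca, Dgat2, Agpat1 and Rxra were not called, nor were Acsl6, Agpat1 and Rxra in a non-robust fit, Acsl6 in limma voom, or Pcca with no filter on low counts or in the model of all 18 libraries (highest adjusted p over these fits 0.0738). In the soleus none of these lists held a called gene in edgeR, where 0.0553% of all genes were called.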

How the data were processed

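Deposited files held counts of reads per gene, one file per library. Per the submitters' processing notes the authors used bcl2fastq, STAR 2.5.1a and featureCounts 1.4.6-p5 (Subread) with GRCm38. The annotation release and the handling of strand and multimapping reads were stated in none of the sources. RNA was depleted of ribosomal RNA, per the labels' protocols. The deposited counts were analysed as they stand, in R 4.3.3.

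Knockouts were tested against controls within each muscle (4 against 5 libraries). The muscle comparisons and the difference of knockout effects were tested in a model of all 18 libraries. Each used edgeR 4.0.16's quasi-likelihood test (TMM scaling, robust dispersion, genes kept by filterByExpr at 10 counts and a total of 15), Benjamini-Hochberg adjustment over all genes and a threshold of 0.05. Every adjusted p comes from this test unless another is named. SE is the log2 fold change divided by the square root of F. CPM uses TMM-scaled library sizes over all 18 libraries, and RPKM divides it by deposited exon length. Genes named come from the 32 members, Mbtps1, called markers and, per pathway list and comparison, up to 3 called genes of smallest p (the smallest p where none was called). The members and lists were chosen with earlier results of these data known. The fits were tested on simulated data. Replicates differed by more than counting noise, so none were merged. Alternatives were RLE and upper-quartile scaling, DESeq2 1.42.0, limma 3.58.1 voom, other filters, a non-robust fit, leaving out Ttn, other sample sets, a block on title numbers and leaving out each library.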

Additional observations from a re-analysis of the deposited data

Results flagged for a closer look

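In 8 of 128 groups of values (32 genes in 4 groups) a single library stood apart from the rest of its group by Dixon's criterion, which chance meets in about 1 in 20 groups. Of these values 6 were in knockout groups, from 5 libraries, and 2 in control groups, and the causes were not tested.

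In the soleus, Acsl1 was high in knockout 39 at 626.0 CPM (other knockouts 489.2 to 507.5 CPM). Angptl4 was high in knockout 40 at 21.04 CPM (others 6.574 to 8.309 CPM), the library with the highest macrophage marker sum of its group. Plin5 was low in knockout 42 at 40.37 CPM (others 50.23 to 51.8 CPM), which was also the lowest of its group in 28 of the 32 genes. Acadm was high in control 37 at 419.5 CPM (other controls 357.6 to 369.6 CPM), and Ucp3 in control 41 at 162.7 CPM (others 72.15 to 94.79 CPM).

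In the gastrocnemius, knockout 2 was low for Cpt2 at 37.02 CPM (other knockouts 44.12 to 45.1 CPM) and for Eci1 at 41.39 CPM (others 47.06 to 48.2 CPM). Acaa2 was high in knockout 7 at 81.1 CPM (others 65.49 to 67.02 CPM).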

How the results depend on the processing

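No member changed sign while called under any alternative. The number of genes called in the gastrocnemius (619) was 1233 with DESeq2 and 206 to 1080 without single libraries, where the members called numbered 0 to 2 (0 to 2 higher, 0 to 1 lower). In the soleus the 10 genes called became 166 with DESeq2, 48 with no filter on low counts, 28 in a model of all 18 libraries and 3 to 66 without single libraries. For the difference of knockout effects the 13 genes called became 49 with DESeq2, 7 with limma voom, 32 with the replicate block and 2 to 23 without single libraries. The causes were not tested. Across scalings the median of all genes in control mice, soleus minus gastrocnemius, ran from 0.04 to 0.12.

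The block assumed that gastrocnemius and soleus title numbers 33 apart belong together, which no label states. Each of the 9 gastrocnemius libraries correlated best with that soleus library of its genotype (r 0.08 to 0.434), a hint from the data and not the design. With the block, members called in knockout mice between muscles numbered 29 instead of 28 (Pdk4, 0.39, adjusted p = 0.0332).

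Wide intervals limit Angptl4, Pdk4 and Ucp3, and 4 against 5 libraries limit every genotype comparison.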

Other observations

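Related pathway lists, chosen with earlier results known, held genes of both directions between muscles. In control mice 8 of 12 further uptake and activation genes were higher in the soleus and 3 lower, as against 27.4% and 21.9% of all genes. Peroxisomal oxidation genes were split at 6 higher and 3 lower of 19, and further carnitine genes at 4 higher and 1 lower of 7. Further genes of acyl-CoA metabolism were 6 higher and 1 lower of 16. All 16 further droplet and triglyceride genes were called, 12 higher and 4 lower. Among them Dgat2, the last enzyme of triglyceride synthesis, had a log2 fold change of 2.08 (adjusted p = 4.83e-15) and Agpat1, an earlier enzyme of that route, one of -0.99. Of 18 regulators 9 were higher, among them the oestrogen-related receptor genes Esrrg (2.37) and Esrrb (2.10), and 5 were lower, among them Rxra (-1.25). Of 9 pyruvate and ketone genes 5 were higher and 2 lower, and Bdh1, which interconverts the ketone bodies, gave 2.38. In knockout mice 19.2% of all genes were higher and 18.5% lower. There the droplet genes were 10 higher and 2 lower of 16, and the regulators 8 higher and 5 lower of 18. Uptake and activation genes were 5 higher and 3 lower of 12, and peroxisomal genes 5 higher and 3 lower of 19. Carnitine genes were 3 higher and 1 lower of 7, and pyruvate and ketone genes 3 higher and 2 lower of 9. Genes of acyl-CoA metabolism were 6 higher and 1 lower of 16.

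Ucp1, the uncoupling protein of brown adipocytes, averaged 1.12 ± 0.153 CPM in gastrocnemius knockouts (SD, n = 4) and 0.143 ± 0.119 CPM in controls (SD, n = 5), a log2 fold change of 2.91 (adjusted p = 0.00732). At a minimum count of 50 it was not tested. The 4 brown adipocyte markers listed summed to 3.819 to 6.407 CPM in gastrocnemius knockouts and 1.441 to 3.038 CPM in gastrocnemius controls. Of the 3 tested there 1 was called higher, as were 1.77% of all genes. In the soleus they summed to 7.684 to 16.64 CPM in knockouts and 5.501 to 6.987 CPM in controls. Of the 3 tested in the soleus 2 had positive and 1 a negative log2 fold change, with 2 at an unadjusted p under 0.05 and 0 called.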
